A study of Mus musculus with 12 samples.

Results

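Nascent and paraxial mesoderm genes were followed in WT and *Meteor* KO mouse ESCs before and during differentiation. The 9 genes were *Mesp1*, *Mesp2*, *Msgn1*, *Tbx6*, *Ripply2*, *Hes7*, *Dll1*, *Dll3* and *Meox1*, chosen by name from the 46517 genes that were counted. All 9 were found by their Ensembl identifiers. RNA came from 12 samples, 3 in each of 4 groups, WT day 0, WT day 3, *Meteor* KO day 0 and *Meteor* KO day 3. All were derived from an *Eomes*-EGFP reporter ESC line on a C57BL/6 background, in which EGFP sits at the *Eomes* gene, and were maintained with LIF on mouse embryonic fibroblast feeders. KO cells lack the *Meteor* enhancer upstream of *Eomes*, removed with the Cas9 nickase. They were picked as individual clones, so the difference between WT and KO also holds whatever else distinguishes a clone from its parent line. Undifferentiated ESCs were taken at day 0. Embryoid bodies from hanging drops were taken at day 3, aggregates in which ESCs begin to form germ layers. No source used here states that replicates came from separate cultures, so p-values measure the spread between these samples.

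Mesoderm forms from epiblast cells that pass through the primitive streak, where *T*, *Eomes* and Wnt and Fgf signals act. Cells that leave the streak early express *Mesp1* and contribute to heart and head mesoderm, whereas later cells become presomitic mesoderm under the control of *Tbx6* and *Msgn1*. In presomitic mesoderm, Notch signalling and the oscillating repressor *Hes7* divide the tissue into somites, with *Mesp2* and *Ripply2* at the forming boundary and *Meox1* in the somite.

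The genes lie on 5 chromosomes of the GRCm38 build. *Mesp1* (ENSMUSG00000030544, chr7:79792241-79793788, minus strand) and *Mesp2* (ENSMUSG00000030543, chr7:79810727-79813439, plus strand) are neighbours transcribed away from each other, with starts 16.9 kb apart. *Msgn1* (ENSMUSG00000047002) is a single exon at chr12:11208360-11208972 on the minus strand. *Tbx6* (ENSMUSG00000030699) lies at chr7:126781483-126785560 and *Dll3* (ENSMUSG00000003436) at chr7:28293553-28302238. *Dll1* (ENSMUSG00000014773) lies at chr17:15367354-15376872, *Ripply2* (ENSMUSG00000047897) at chr9:87015537-87019917, *Hes7* (ENSMUSG00000023781) at chr11:69120404-69124055 and *Meox1* (ENSMUSG00000001493) at chr11:101877510-101894374. The longest transcript of each shared no 100-base stretch, read in the sense direction, with a transcript of another gene. *Hes7*, *Dll1* and *Meox1* each overlap a gene on the opposite strand, and these partners had at most 7 counts in any sample. The shared exon bases were 234 for *Hes7*, 867 for *Dll1* and 0 for *Meox1*. Whether reads from these bases were left out of the counts was not tested.

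Sequence upstream of the RefSeq start is shown for *Msgn1* and *Mesp1*, the genes with the largest differences at day 3, and for *Mesp2*, which neighbours *Mesp1*. Sequences are from the RefSeq promoter table of GRCm38.p6, where 8 of the 9 genes were found, and *Meox1* was not among them. They are written 5′ to 3′ on the strand of the gene, and capitals mark CTTTGA, the core recognised by TCF/LEF factors of the Wnt pathway, or its reverse complement TCAAAG. *Msgn1* is shown from chr12:11208979-11209198. *Mesp2* is shown from chr7:79810477-79810726. *Mesp1* is shown as a pair of short stretches, chr7:79793646-79793673 and chr7:79793605-79793632, since the GENCODE gene model starts 198 bases further upstream than the RefSeq start. Both stretches, with their marked letters, thus lie inside the GENCODE gene model.
Msgn1: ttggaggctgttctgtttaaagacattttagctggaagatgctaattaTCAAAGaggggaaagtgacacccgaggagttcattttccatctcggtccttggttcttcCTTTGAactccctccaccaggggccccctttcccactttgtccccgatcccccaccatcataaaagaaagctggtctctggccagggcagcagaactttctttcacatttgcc
Mesp2: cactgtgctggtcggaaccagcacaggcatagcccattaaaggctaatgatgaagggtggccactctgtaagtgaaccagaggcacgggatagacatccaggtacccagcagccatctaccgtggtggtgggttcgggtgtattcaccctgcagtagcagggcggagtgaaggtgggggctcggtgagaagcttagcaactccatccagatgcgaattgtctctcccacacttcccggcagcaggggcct
Mesp1, upper stretch: cctgctatggtTCAAAGggttcaggccc
Mesp1, lower stretch: gctcgagccggCTTTGAtatgctgatga

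Matches to 5 motifs were sought on both strands in the 250 bases before each RefSeq start. CTTTGA was present in 2 of the 8 promoters, *Mesp1* at -72 and -31 and *Msgn1* at -202 and -143, and in 13.8% of all 32851 promoters. The RBPJ core TGGGAA of the Notch pathway was present upstream of *Msgn1* at -114 and of *Hes7* at -180, and in 21.6% of all promoters. The T-box letters AGGTGT were present upstream of *Mesp1* at -233, against 11.8% of all promoters, and GTGTGA upstream of *Dll3* and *Ripply2*, against 12.3%. The E-box CANNTG, which bHLH factors such as *Mesp1* and *Msgn1* bind, was present in 7 of 8 promoters, all but that of *Tbx6*, and in 66.2% of all promoters. The motifs were chosen with these sequences in view, so the matches are a description of the letters.

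Gene counts summed to 17455927 reads in the shallowest sample and 23910943 in the deepest. CPM denotes counts scaled by TMM to a common library size, and counts are given beside low values, since many values of these genes rest on few reads. Transcripts of the *Meteor* locus summed to between 1.87 and 11.96 CPM in WT samples and to at most 0.0551 CPM in KO samples. ESC markers (*Pou5f1*, *Nanog*, *Zfp42*, *Klf4*, *Esrrb* and *Tfcp2l1*) summed to 3128, 2932 and 2652 CPM in WT ESCs and to 4122, 4297 and 3966 CPM in KO ESCs. At day 3 they summed to between 566.8 and 1087 CPM. In edgeR's quasi-likelihood F test, *Tfcp2l1* (log2 fold change 0.84 ± 0.13, adjusted p = 0.00216) and *Esrrb* (0.57 ± 0.17, adjusted p = 0.0426) were higher in KO at day 0, and 4 were not called. At day 3, *Zfp42* (0.76 ± 0.14, adjusted p = 0.00323) and *Esrrb* (0.68 ± 0.18, adjusted p = 0.0173) were higher and *Tfcp2l1* (-0.70 ± 0.14, adjusted p = 0.00488) lower. A pair of libraries stood apart from their groups. Replicate 3 of WT day 0 held 77.4 CPM of *T*, a streak factor, against 4.64 and 6.42 in the other replicates. Replicate 3 of WT day 3 held 649.1 CPM of lateral and cardiac mesoderm genes against 71.2 and 66.9, together with less *T* (269.5 against 692.5 and 612.6 CPM). Their part in the results was not tested beyond the values given without them.

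At day 3, 5 of the 7 tested genes were lower in *Meteor* KO than in WT embryoid bodies, namely *Mesp1*, *Mesp2*, *Msgn1*, *Tbx6* and *Dll3*. Of all 15673 tested genes, 16.7% were lower and 14.3% higher by the same rule, a Benjamini-Hochberg adjusted p-value below 0.05 in edgeR's quasi-likelihood F test. Genes above 1 CPM in at least 1 sample were tested. *Mesp1* and *Msgn1* passed that filter only through the WT day 3 samples, in which they were high, so the count of 5 carries no weight beyond the single results. *Ripply2* and *Hes7* stayed below 1 CPM in every sample and were not tested in the main fit. In bulk samples, fewer cells of a type and less RNA per cell cannot be told apart. Log2 fold changes are given with their SE, with n = 3 per group.

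**Figure D1:**
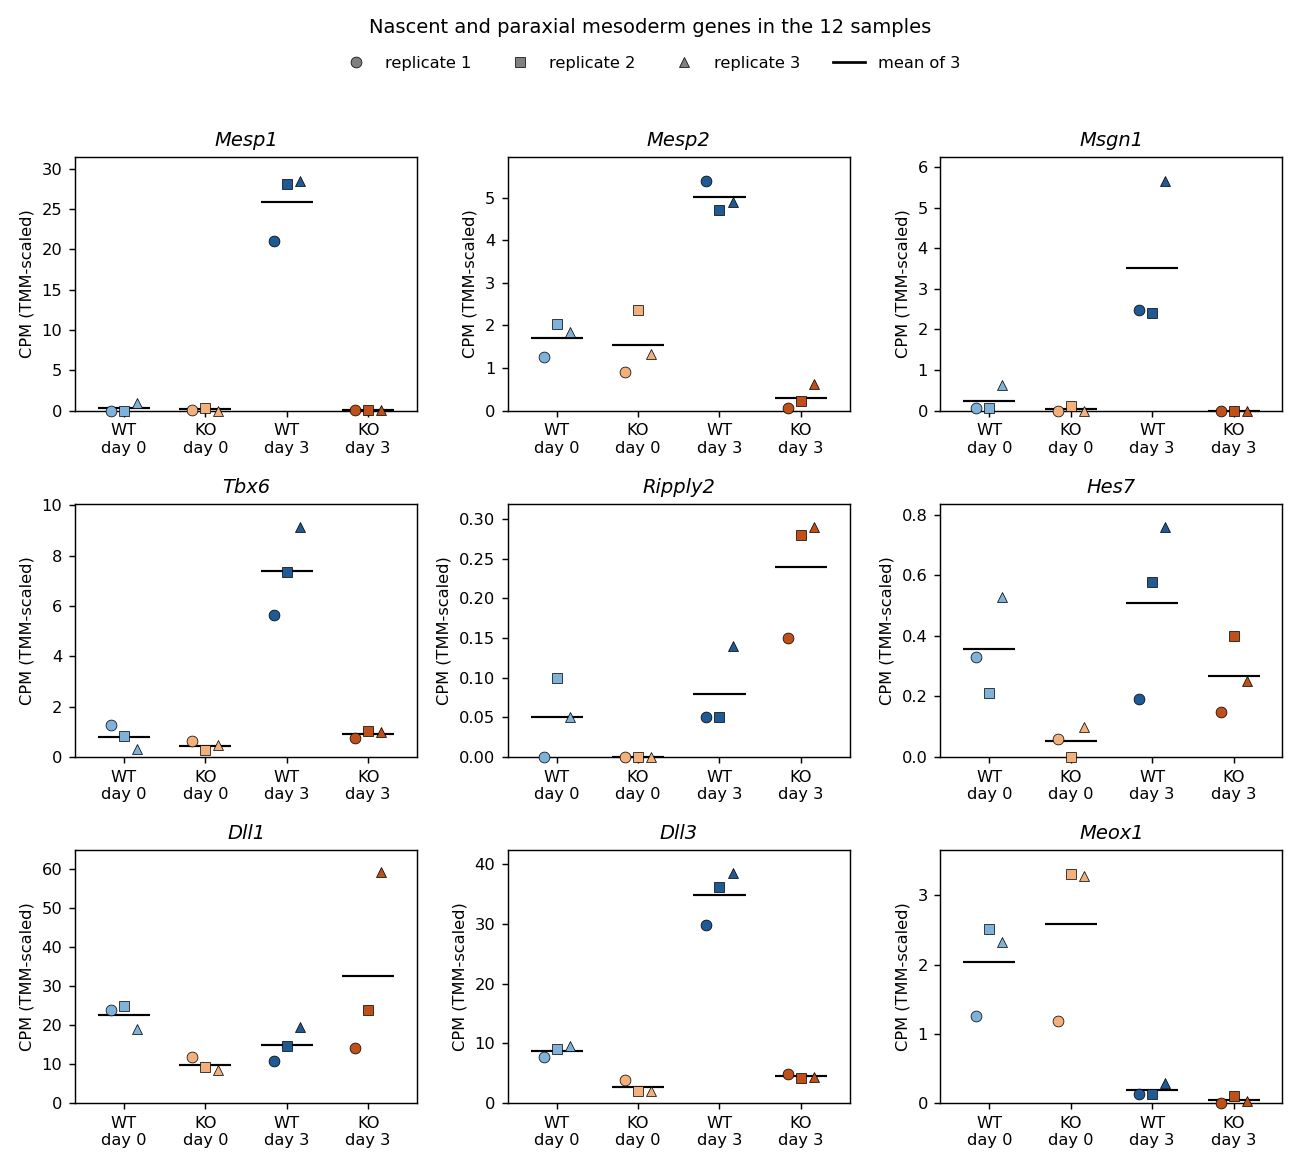
CPM after TMM scaling (y axis, starting at 0, with its own range for each gene) of the 9 genes in the 4 groups (x axis). Each point is 1 sample, its shape gives the replicate, and the bar is the mean of 3. *Mesp1*, *Mesp2*, *Msgn1*, *Tbx6* and *Dll3* stand above every other group in WT day 3, while *Dll1* reaches its highest value, 59.2 CPM, in replicate 3 of *Meteor* KO day 3.

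*Mesp1*, a bHLH factor of nascent mesoderm and heart precursors, was read at 20.99, 28.1 and 28.5 CPM in WT embryoid bodies (450, 583 and 599 counts) and at 0.05, 0.11 and 0.08 CPM in KO embryoid bodies (1, 2 and 2 counts). Every WT value lay far above every KO value. The log2 fold change was -8.29 ± 0.92 (adjusted p = 0.000247), and the pooled counts, scaled for library size, differed 318-fold with an exact 95% interval of 136 to 981 that covers counting error only. At day 0, WT ESCs had 0, 0 and 17 counts (0, 0 and 0.90 CPM) and KO ESCs had 1, 6 and 0 counts (0.06, 0.33 and 0 CPM). The 17 counts came from the WT library with high *T*, and the day 0 groups overlapped, with a log2 fold change of -1.11 ± 1.26 (adjusted p = 0.585) that turned to 4.40 (adjusted p = 0.183) without that library. Between day 0 and day 3, *Mesp1* rose in WT by 6.55 ± 0.79 on the log2 scale (adjusted p = 0.000103). Without the library with high *T*, WT day 0 is at 0 counts and the fitted value, 12.1, depends on the prior count that edgeR adds. In KO cells *Mesp1* moved by -0.63 ± 1.58 between the days (adjusted p = 0.756), a value that rests on 5 and 7 counts per group and turned to 1.46 (adjusted p = 0.619) without replicate 2 of *Meteor* KO day 0.

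*Mesp2*, the neighbour of *Mesp1* and a factor of the somite boundary, was at a low level already in ESCs. WT ESCs had 1.26, 2.04 and 1.85 CPM (23, 39 and 35 counts) and KO ESCs had 0.90, 2.37 and 1.33 CPM (16, 43 and 26 counts). The day 0 groups overlapped, with a log2 fold change of -0.19 ± 0.46 (adjusted p = 0.818). At day 3, WT embryoid bodies had 5.41, 4.72 and 4.91 CPM (116, 98 and 103 counts), whereas KO embryoid bodies had 0.05, 0.23 and 0.62 CPM (1, 4 and 15 counts). The groups did not overlap, with a log2 fold change of -4.06 ± 0.53 (adjusted p = 0.000535). *Mesp2* thus rose in WT by 1.61 ± 0.44 (adjusted p = 0.0104) and fell in KO by 2.27 ± 0.55 (adjusted p = 0.00537), so that all 3 KO embryoid bodies lay below all 3 KO ESC samples. The rise in WT missed the threshold without replicate 1 of WT day 3 (1.17, adjusted p = 0.053).

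*Msgn1*, a bHLH factor of presomitic mesoderm, had 2.47, 2.41 and 5.67 CPM in WT embryoid bodies (53, 50 and 119 counts) and not a single count in the 3 KO embryoid bodies. Against the limit that a count of 0 allows, 3 counts over the group, KO was at least 72.1-fold lower, if the WT counts are taken as exact. The fitted log2 fold change, -9.27 ± 1.14 (adjusted p = 0.00086), depends on the prior count. At day 0, WT ESCs had 1, 1 and 12 counts and KO ESCs 0, 2 and 0 counts, and the 12 counts again came from the WT library with high *T*. The day 0 difference was -2.42 ± 1.18 (adjusted p = 0.192), or -0.88 without that library (adjusted p = 0.779). In WT, *Msgn1* rose by 3.99 ± 0.66 between the days (adjusted p = 0.00128), and by 5.45 without that library (adjusted p = 0.00217). In KO cells only 2 counts were read over all 6 libraries, and a change between the days was not detectable at this depth.

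*Tbx6*, a T-box factor that directs cells to paraxial rather than neural fate, had 5.64, 7.36 and 9.15 CPM in WT embryoid bodies (121, 153 and 192 counts) and 0.75, 1.02 and 1.00 CPM in KO embryoid bodies (15, 18 and 24 counts). The groups did not overlap, and KO was lower, with a log2 fold change of -2.99 ± 0.42 (adjusted p = 0.000807). At day 0, WT ESCs had 1.26, 0.84 and 0.32 CPM and KO ESCs had 0.62, 0.28 and 0.46 CPM. These ranges overlapped (-0.82 ± 0.51, adjusted p = 0.299). *Tbx6* rose in WT by 3.21 ± 0.44 between the days (adjusted p = 0.000206). In KO the change was 1.04 ± 0.50 (adjusted p = 0.102), with all 3 day 3 values above all 3 day 0 values, and it passed the threshold when replicate 3 of WT day 0 was left out (adjusted p = 0.0439).

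*Dll3*, a divergent Notch ligand of presomitic mesoderm that is not known to activate the receptor on neighbouring cells, differed at both days. *Dll1* passed at both days only in some alternatives, lower in KO at day 0 but higher at day 3. That held with the replicate number as a block within each day and with the samples of 1 day alone. It also held without a filter on low counts, with DESeq2 and without replicate 1 of *Meteor* KO day 3. For *Dll3*, WT ESCs had 7.70, 9.08 and 9.56 CPM (141, 174 and 181 counts) and KO ESCs had 3.98, 2.09 and 2.04 CPM (71, 38 and 40 counts). KO was lower, with a log2 fold change of -1.71 ± 0.25 (adjusted p = 0.00168), with no overlap. WT embryoid bodies had 29.8, 36.1 and 38.4 CPM, and KO embryoid bodies had 4.85, 4.32 and 4.45 CPM. KO was lower, with a log2 fold change of -2.94 ± 0.24 (adjusted p = 7.08e-05), and every KO embryoid body lay below every WT ESC sample. *Dll3* rose in WT by 1.99 ± 0.23 between the days (adjusted p = 8.64e-05) and in KO by 0.76 ± 0.26 (adjusted p = 0.0276). The rise in KO missed the threshold without replicate 2 (adjusted p = 0.118) or replicate 3 (adjusted p = 0.125) of *Meteor* KO day 0, and without replicate 1 (adjusted p = 0.0767), 2 (adjusted p = 0.0612) or 3 (adjusted p = 0.0636) of *Meteor* KO day 3.

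*Dll1*, the Notch ligand of presomitic mesoderm that is also used in neural progenitors, followed another course than *Dll3*. WT ESCs had 23.9, 24.8 and 19.0 CPM and KO ESCs had 11.9, 9.26 and 8.63 CPM. The day 0 groups were apart, yet the difference of -1.19 ± 0.40 missed the threshold (adjusted p = 0.0633). When the replicate number was a block within each day, so that WT and KO samples of the same number were set against each other, it passed (-1.19, adjusted p = 0.00204). It also passed when replicate 3 of WT day 0 (adjusted p = 0.0474), replicate 1 of *Meteor* KO day 0 (adjusted p = 0.0438), or replicate 1 (adjusted p = 0.0299) or 3 (adjusted p = 0.0174) of *Meteor* KO day 3 was left out.

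At day 3, *Dll1* had 10.96, 14.6 and 19.6 CPM in WT (235, 303 and 412 counts) and 14.3, 24.0 and 59.2 CPM in KO (286, 422 and 1423 counts). KO was higher in each of the 3 pairs of the same number, but the groups overlapped and the spread in KO was wide. The log2 fold change of 1.03 ± 0.39 missed the threshold (adjusted p = 0.0721), and it passed with the block within each day (0.93, adjusted p = 0.00449). Replicate 3 of *Meteor* KO day 3 carried much of it, since the value was 0.37 without that library (adjusted p = 0.424), while it was 1.41 without replicate 1 of that group (adjusted p = 0.0193). Between the days *Dll1* rose in KO by 1.56 ± 0.41 (adjusted p = 0.00852), or by 0.91 without replicate 3 of *Meteor* KO day 3 and by 1.21 without replicate 3 of *Meteor* KO day 0 (adjusted p = 0.0548). In WT its change was -0.66 ± 0.39 (adjusted p = 0.18), with ranges that overlapped, and it passed as a fall when both day 3 samples numbered 3 were left out (-0.98, adjusted p = 0.0102).

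*Ripply2* and *Hes7*, genes of the somite boundary and of the segmentation clock, were near the limit of these libraries. *Ripply2*, a repressor at the somite boundary, had 0, 2 and 1 counts in WT ESCs, 1, 1 and 3 in WT embryoid bodies, 0 in every KO ESC sample and 3, 5 and 7 in KO embryoid bodies. The pooled CPM at day 3 was 3.08-fold that of WT, with an exact 95% interval of 1.06 to 10.8 for counting error only. Against a limit of 3 counts for KO ESCs, KO embryoid bodies were 4.51-fold higher. Their own counts were taken as exact, so this value is not a lower limit. *Hes7*, the clock repressor, had 6, 4 and 10 counts in WT ESCs, 4, 12 and 16 in WT embryoid bodies, 1, 0 and 2 in KO ESCs and 3, 7 and 6 in KO embryoid bodies. The ratio of KO to WT was 0.152 at day 0 (interval 0.029 to 0.513) and 0.513 at day 3 (interval 0.263 to 0.963). The groups overlapped at day 3 and not at day 0. The ratio of day 3 to day 0 in KO was 4.81 (interval 1.38 to 25.8). At 16 counts or fewer per library, these ratios were not set against the spread between replicates in the main fit. The fit without a filter on low counts held all 9 genes, of which 3 passed at day 0 and 6 at day 3. Neither *Ripply2* nor *Hes7* was among those that passed at day 3. Their single values in that fit are not given here.

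*Meox1*, a homeobox gene of formed somites, fell between the days in both genotypes, and was the one tested gene called lower in WT, other than *Dll1* when both day 3 samples numbered 3 were left out. WT ESCs had 1.26, 2.51 and 2.33 CPM (23, 48 and 44 counts) and WT embryoid bodies 0.14, 0.14 and 0.29 CPM (3, 3 and 6 counts). KO ESCs had 1.18, 3.31 and 3.27 CPM (21, 60 and 64 counts) and KO embryoid bodies 0, 0.11 and 0.04 CPM (0, 2 and 1 counts). *Meox1* fell by 3.38 ± 0.41 on the log2 scale in WT (adjusted p = 0.000114) and by 5.54 ± 0.51 in KO (adjusted p = 1.28e-05). WT and KO did not pass the test at day 0 (0.29 ± 0.32, adjusted p = 0.573) or at day 3 (-1.87 ± 0.68, adjusted p = 0.0606), although the day 3 difference passed without replicate 2 of WT day 3 (-2.25, adjusted p = 0.0462). RNA of the fibroblast feeders was read from 10 markers. They summed to 86.7, 276.9 and 148.3 CPM in WT ESCs and to 137.0, 380.7 and 236.2 CPM in KO ESCs, lowest in replicate 1 of both genotypes, where *Meox1* was lowest as well. None of the markers was at 0 in all samples of a group. At day 3 they summed to between 52.0 and 122.3 CPM in WT and to between 41.3 and 85.1 CPM in KO. The 122.3 CPM came from replicate 3 of WT day 3, the library with high lateral mesoderm genes. There *Fbn1* alone had 60.6 CPM, against 15.95 and 18.9 CPM in replicates 1 and 2. Whether these markers read feeder RNA alone at day 3 was not tested. Of the 9 tested markers, 3 fell and 6 were not called in WT between the days, with a median of -0.32. Over all tested genes, 25.5% fell in WT, and in KO 27.2% fell and 29.4% rose. In KO 6 of the markers fell, and *Dcn* rose by 1.89 ± 0.42 (adjusted p = 0.00327). Between KO and WT at day 3, 3 were lower, led by *Twist2* (-2.50 ± 0.72, adjusted p = 0.0249) and *Prrx1* (-2.43 ± 0.57, adjusted p = 0.0106), and 3 higher, led by *Dcn* (2.51 ± 0.43, adjusted p = 0.00224) and *Col3a1* (1.47 ± 0.42, adjusted p = 0.0238). Over all tested genes, 16.7% were lower and 14.3% higher in KO at day 3. The part of feeder RNA in the *Meox1* values was not tested.

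**Figure D2:**
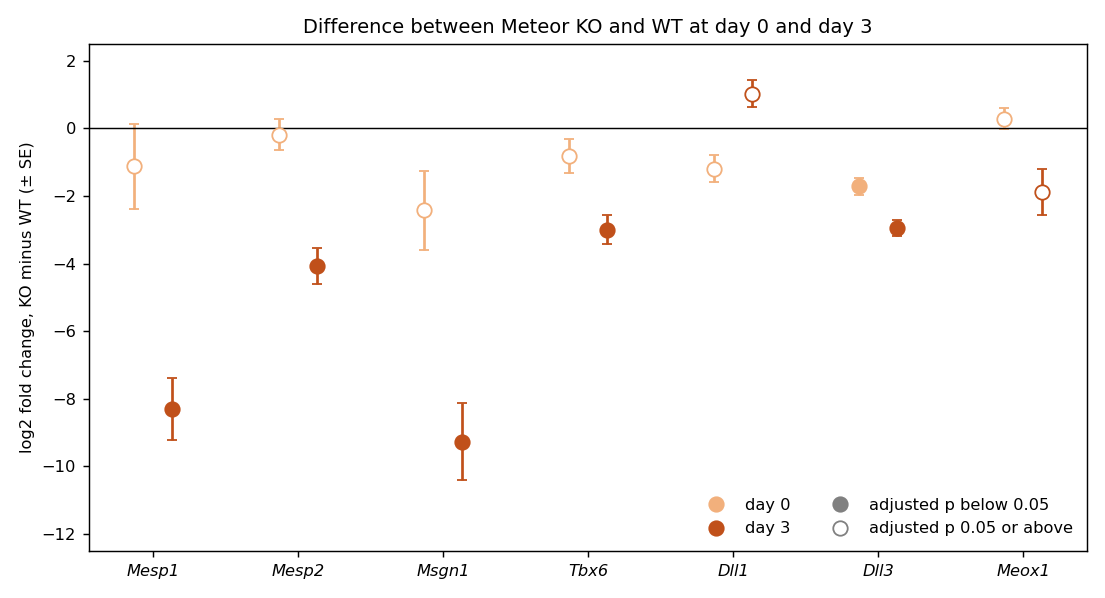
Log2 fold change of *Meteor* KO minus WT (y axis) for the 7 tested genes (x axis) at day 0 (light) and day 3 (dark), with bars of 1 SE from edgeR and 3 samples per group. Filled points passed an adjusted p-value of 0.05. At day 3 the points of *Mesp1*, *Msgn1* and *Mesp2* lie at -8.29, -9.27 and -4.06, while the day 0 points lie between -2.42 and 0.29.

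Counted over the comparisons, 1 of the 7 tested genes, *Dll3*, was lower in KO at day 0, where 10.9% of all tested genes were lower and 9.56% higher. Between the days in WT, 5 of 7 rose (*Mesp1*, *Mesp2*, *Msgn1*, *Tbx6* and *Dll3*) and 1 fell (*Meox1*), where 30.7% of all tested genes rose and 25.5% fell. *Mesp1* and *Msgn1* passed the filter only through WT day 3, so this count carries no weight beyond the single results. Between the days in KO, 2 of 7 rose (*Dll1* and *Dll3*) and 2 fell (*Mesp2* and *Meox1*), where 29.4% of all tested genes rose and 27.2% fell. The comparisons share samples and are not independent of each other. With the replicate block within each day, 2 genes passed at day 0 and 6 at day 3, *Dll1* being added at both days, and the number of all genes that passed rose from 3201 to 5447 at day 0 and from 4846 to 7347 at day 3.

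Whether the effect of the deletion differed between the days was tested by the interaction term. The effect was more negative at day 3 than at day 0 for *Mesp1* (-7.18 ± 2.06, adjusted p = 0.0417), *Mesp2* (-3.88 ± 0.70, adjusted p = 0.00604) and *Dll3* (-1.23 ± 0.34, adjusted p = 0.0373), and more positive for *Dll1* (2.22 ± 0.56, adjusted p = 0.0258). Of all tested genes, 7.34% passed in the negative and 8.21% in the positive direction. *Mesp1* entered the test only through WT day 3, the group in which it was high. The value of *Tbx6* was -2.18 ± 0.67 (adjusted p = 0.0544), that of *Msgn1* was -6.84 ± 2.58 (adjusted p = 0.113) and that of *Meox1* was -2.16 ± 0.75 (adjusted p = 0.0784). With the block within each day *Tbx6* passed as well (-2.22, adjusted p = 0.0096). The *Mesp2* difference passed in all 12 fits that left out 1 sample (adjusted p between 0.00519 and 0.0238). The other calls were close to the threshold. *Mesp1* was lost in 7 of the 12 fits, namely without replicate 1 or 2 of WT day 3, replicate 1 or 2 of *Meteor* KO day 0, or any replicate of *Meteor* KO day 3 (adjusted p between 0.0526 and 0.496). *Dll1* was lost in 4, without replicate 1 or 2 of WT day 0 or replicate 2 or 3 of *Meteor* KO day 0 (adjusted p between 0.0645 and 0.0744). *Dll3* was lost in 9, all but those without replicate 1 of WT day 3 or replicate 2 or 3 of *Meteor* KO day 0 (adjusted p between 0.0586 and 0.0926). *Tbx6* was gained without replicate 1 of WT day 0 (adjusted p = 0.0263) or replicate 1 of WT day 3 (adjusted p = 0.037).

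Most of the genes that act before the 9 in the embryo were lower in KO embryoid bodies. Of 12 upstream regulators, all tested, 9 were lower, 1 was higher and 2 were not called at day 3, with a median log2 fold change of -4.61 against -0.00195 over all tested genes. Among the latter, 16.7% were lower and 14.3% higher. *Sp5* and *Wnt3a*, a target and a ligand of the Wnt pathway, were lower, with log2 fold changes of -7.00 ± 0.81 (adjusted p = 0.000302) and -6.93 ± 1.02 (adjusted p = 0.00101). The gene encoding *T* was lower, with a log2 fold change of -6.71 ± 1.13 (adjusted p = 0.002), *Fgf8* had one of -4.42 ± 0.84 (adjusted p = 0.0037), and *Eomes*, the gene downstream of the deleted enhancer, one of -1.87 ± 0.40 (adjusted p = 0.00646). *Fgf4*, an ESC growth factor, was higher by 1.76 ± 0.23 (adjusted p = 0.000588). At day 0 the same list had 7 genes lower and 1 higher, with a median of -1.92, where 10.9% of all tested genes were lower and 9.56% higher. Without the WT day 0 library with high *T*, 4 were lower and 1 higher at day 0.

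Of 24 further presomitic mesoderm and somite genes, 22 were tested, and 11 were lower, 3 higher and 8 not called in KO at day 3. Their median was -1.22. Over all tested genes, 16.7% were lower and 14.3% higher. *Foxc2* and *Pax3* passed the filter only through WT day 3 samples. *Rspo3*, a secreted enhancer of Wnt signalling, was lower, with a log2 fold change of -5.90 ± 0.62 (adjusted p = 0.000202) and *Foxc2*, a forkhead factor of paraxial mesoderm, had one of -4.39 ± 0.89 (adjusted p = 0.00503). *Foxc2* had 0.56, 1.01 and 6.10 CPM in WT embryoid bodies, the highest in the library with high lateral mesoderm genes. *Ripply1*, the relative of *Ripply2*, was higher by 1.25 ± 0.36 (adjusted p = 0.0248) and *Tcf15*, a somite gene also expressed in ESCs, by 1.16 ± 0.25 (adjusted p = 0.00739). Values of 3 further genes of the Notch pathway were also read. *Lfng*, which modifies the receptor in the segmentation clock, differed by 0.16 ± 0.19 (adjusted p = 0.552), the receptor gene *Notch1* by -0.29 ± 0.19 (adjusted p = 0.285) and the target gene *Hes1* by -0.53 ± 0.24 (adjusted p = 0.112). *Hes1* had 40.7, 44.3 and 93.4 CPM in KO embryoid bodies, highest in the library in which *Dll1* was highest. By the interaction term, the KO effect on *Hes1* was more negative at day 3 than at day 0 (-1.25 ± 0.34, adjusted p = 0.0333). Other Notch pathway genes of the list were called at day 3. *Nrarp* (-1.96 ± 0.47, adjusted p = 0.011) and *Mib1* (-0.26 ± 0.07, adjusted p = 0.0195) were lower in KO. *Rbpj* was higher (0.51 ± 0.13, adjusted p = 0.0165), and *Hey1* and *Heyl* were not called. At day 0, 1 gene of this list was lower and 1 higher, against 5 lower and 5 higher with the block within each day. In the main fit, 10.9% of all tested genes were lower and 9.56% higher at day 0.

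Neighbouring fates were read from a pair of marker lists. Of the 10 lateral and cardiac mesoderm genes, 9 were tested and all 9 were lower in KO at day 3, with a median of -5.05. *Hand2*, *Isl1* and *Foxf1* exceeded 1 CPM only in WT day 3 samples and so entered the test through the group in which they were high, which in part fixes the count and the median. Without the WT day 3 library that stood apart, 7 were tested and 6 were lower. *Hand1*, a factor of lateral mesoderm, had 1.68, 1.25 and 105.0 CPM in WT embryoid bodies and at most 0.08 CPM in KO embryoid bodies. *Nkx2-5*, a cardiac factor, had 0.05, 0.10 and 1.00 CPM in WT, whereas KO had 0 counts throughout. Of 8 neural genes, 5 were higher and 1 lower in KO at day 3, led by *Neurog3* (4.57 ± 0.70, adjusted p = 0.00123) and *Sox1* (2.47 ± 0.56, adjusted p = 0.00917), with *Nes* lower (-0.99 ± 0.29, adjusted p = 0.0261). Over all tested genes, 14.3% were higher and 16.7% lower at day 3. *Zic1* passed the filter only through WT day 3 and *Pou3f2* only through *Meteor* KO day 3. At day 0, 3 of the 8 neural genes were lower, where 10.9% of all tested genes were lower.

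**Figure D3:**
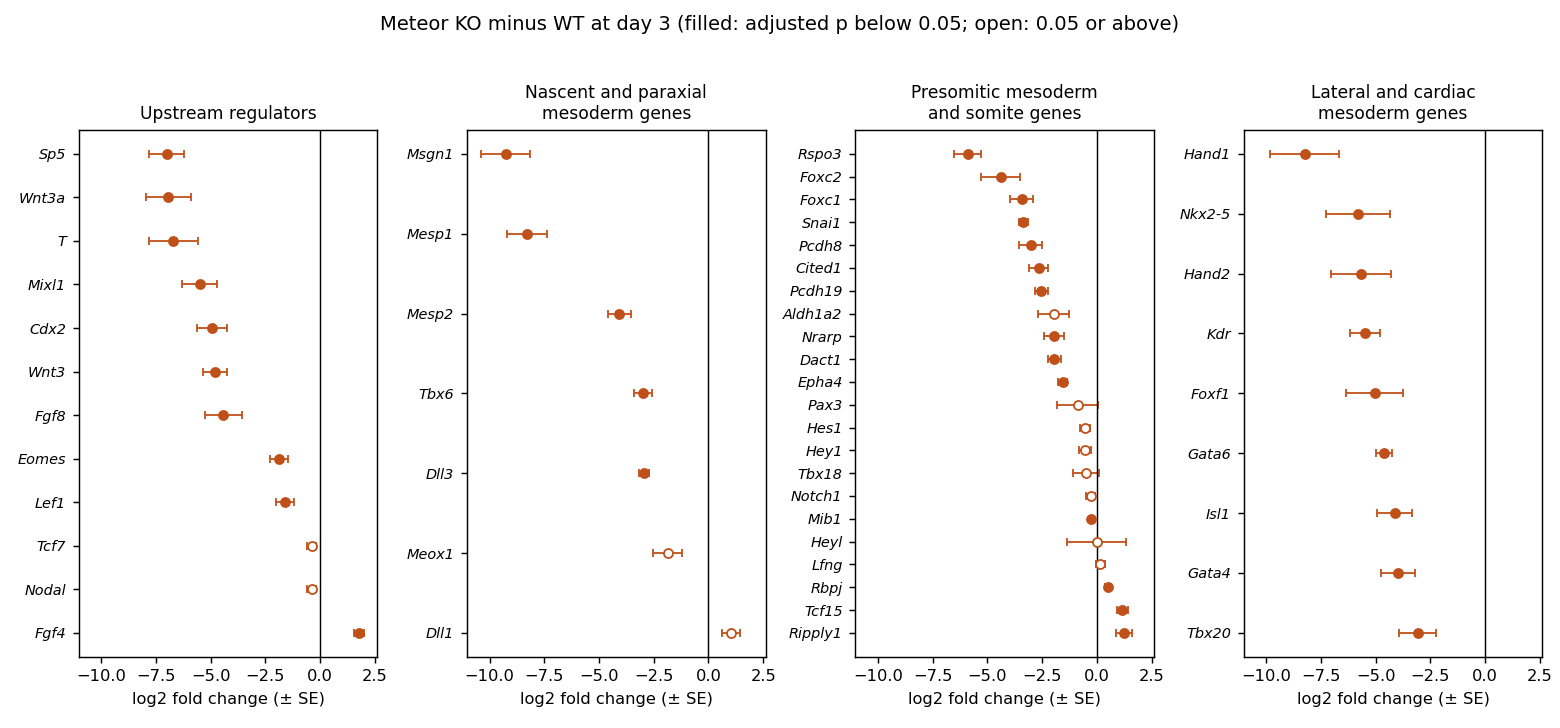
Log2 fold change of *Meteor* KO minus WT at day 3 with 1 SE (x axis) for every tested gene (y axis) of 4 lists, with 3 samples per group. Filled points passed an adjusted p-value of 0.05 in edgeR. All 9 tested lateral and cardiac genes and 11 of 12 upstream regulators lie below 0, 9 of the 12 past the threshold, whereas the presomitic and somite genes run from *Rspo3* at -5.90 to *Ripply1* at 1.25.

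Replicate 3 of WT day 3 differed from replicates 1 and 2 in lateral, cardiac and upstream genes more than in the 7 tested paraxial genes. On the scale of log2(CPM + 0.5), it lay above the mean of the others by a median of 3.62 for lateral and cardiac genes, with 9 of 9 more than 1 log2 unit higher, and below it by a median of -0.845 for upstream regulators, with 5 of 12 more than 1 unit lower. The library had been set apart by its lateral and cardiac genes and its *T*, so these values in part restate that choice. Without it, 7 lateral and cardiac genes were tested rather than 9. For the 7 paraxial genes the median was 0.291, and *Msgn1* alone was more than 1 unit higher (1.07). For the 22 further presomitic and somite genes the median was 0.238, with 6 more than 1 unit higher and 1 lower. Over all tested genes the median was -0.00297, and 773 were more than 1 unit higher and 131 lower. Leaving this library out kept *Mesp1*, *Mesp2*, *Msgn1*, *Tbx6* and *Dll3* past the threshold at day 3, as did each of the other 11 samples left out in turn. In replicate 3 of *Meteor* KO day 3, *Dll1* was 1.60 units above the others, while 36 of all tested genes were more than 1 unit higher and 14 lower.

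**Figure D4:**
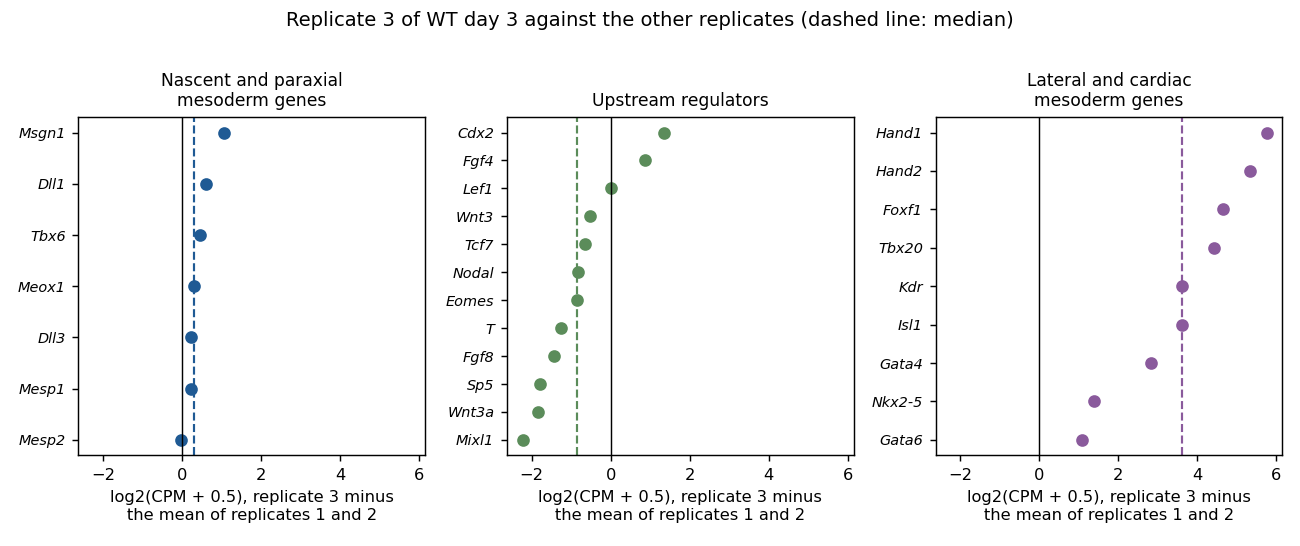
Difference in log2(CPM + 0.5) between replicate 3 of WT day 3 and the mean of replicates 1 and 2 (x axis) for each tested gene (y axis) of 3 lists, with the median as a dashed line. The paraxial genes lie between -0.0414 and 1.07, the upstream regulators between -2.23 and 1.36, and the lateral and cardiac genes between 1.08 and 5.75. The library had been set apart by its lateral and cardiac genes and its *T*, so their values in part restate that choice.

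Levels were compared between genes as CPM per kb of exon. In WT embryoid bodies *Mesp1* was highest with 20.3 CPM per kb, followed by *Dll3* with 12.2, and the ranges of both stood apart from the next. *Msgn1* (5.74), *Tbx6* (4.09), *Dll1* (3.57) and *Mesp2* (2.58) formed a chain in which each range overlapped that of the next. *Hes7* (0.281), *Ripply2* (0.108) and *Meox1* (0.0853) lay below them with overlapping ranges. In KO embryoid bodies *Dll1* was highest with 7.70 CPM per kb, and then came *Dll3* (1.59), *Tbx6* (0.512) and *Ripply2* (0.329), with the ranges of the first 3 each apart from the next. In ESCs the order began with *Dll1* (5.36) and *Dll3* (3.08) in WT, ranges apart, and with *Dll1* (2.36), *Meox1* (1.16) and *Dll3* (0.949) in KO, where *Meox1* and *Dll3* overlapped.

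Over the 12 samples, Pearson's r of log2(CPM + 0.5) with *Mesp1* was 0.975 for *Msgn1*, 0.915 for *Tbx6*, 0.896 for *Dll3*, 0.797 for *Mesp2* and -0.187 for *Dll1*. These values describe 4 groups of 3 and largely restate the WT day 3 level. Among 14170 other protein-coding genes, those most like *Mesp1* were *Slc44a5* (r = 0.992), *Frzb* (r = 0.987) and *S1pr5* (r = 0.981). *Frzb*, a secreted Wnt antagonist, had a mean of 43.9 CPM in WT and 0.707 CPM in KO embryoid bodies. Those most like *Dll3* were *Ndn* (0.975), *Wrn* (0.974) and *Emilin2* (0.97), and those most like *Tbx6* were *Slc8a3* (0.98), *Coq8b* (0.978) and *Dennd1c* (0.971). For *Dll1* the nearest genes were less alike, with *Neb* (0.938), *Erich5* (0.908) and *Gm4969* (0.872).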

How the data were processed

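Poly(A) RNA from 12 samples was prepared with a stranded kit and sequenced as single reads. The authors removed adapters with Cutadapt 1.3, mapped reads to GRCm38 by STAR 2.4.2a and counted them per gene of Ensembl release 82 in htseq-count 0.6.1. The strand setting is not given in the sources used here. The deposited values are whole-number counts, which the authors did not normalize. Reads with several alignments, between 36.52% and 44.09% of the alignments listed, are not in the gene counts. The tests of the authors rested on TMM, voom and limma with a batch factor.

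Of 46517 genes, 46005 were found in GENCODE M21, which gave symbols, positions and exon lengths. Genes above 1 CPM in at least 1 sample (15673) entered a quasi-likelihood fit in edgeR 4.0.16 (R 4.3.3) after TMM normalization. The fit had terms for the 4 groups and for the replicate number as a block shared by both days. The 5 comparisons were KO against WT at each day, day 3 against day 0 in each genotype, and the interaction. Benjamini-Hochberg adjustment ran over all tested genes, and a gene was called at an adjusted p-value below 0.05. SEs were derived from the log2 fold change and the F statistic. Ratios of genes that were not tested carry exact 95% intervals of counting error. The floor for a group without counts was 3 counts over the group. The fit was tested on simulated data before use.

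Replicate numbers come from the sample titles. Deviations from the group means over 13805 genes correlated within the 6 WT and KO pairs that share day and number (mean 0.506, 0.289 to 0.68). Pairs that share the day but not the number gave -0.251 (12 pairs), which is in part forced, and pairs that share the number but not the day gave -0.042 (12 pairs). Numbers thus pair samples within a day, whereas the block of the main fit holds 1 effect per number over both days. The block within each day, run as an alternative, follows the pairing. The calls that it changed are given with the results. No 2 replicates were the same within sampling noise, with a chi-square per gene of 10.58 to 50.78.

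Alternatives were other replicate blocks, only the 6 samples of a comparison, RLE normalization, other filters on low counts (at least 10 counts in every sample, or none), limma-voom (limma 3.58.1), DESeq2 1.42.0, a log2 fold change minimum of 1, each sample left out in turn and, added after seeing the data, both day 3 samples numbered 3 left out. The 9 genes, the other gene lists, the motifs and the tests were chosen with earlier results of these data known. All 9 genes are reported in every sample. From each other list, except the *Meteor* locus transcripts, the 2 largest called changes in each direction at day 3 are named. Further named are *T*, *Eomes*, *Lfng*, *Fgf8*, *Wnt3a*, *Hes1* and *Notch1* and the 3 genes most like *Mesp1*, *Tbx6*, *Dll1* and *Dll3*. *Hand2*, *Isl1*, *Foxf1*, *Pax3*, *Zic1* and *Pou3f2* are named in addition, for the way in which they passed the filter, chosen after their values were seen. The Notch pathway genes *Nrarp*, *Mib1*, *Rbpj*, *Hey1* and *Heyl* and the feeder marker *Fbn1* are also named, likewise chosen after their values were seen. Protein sequences were not used here.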

Additional observations from a re-analysis of the deposited data

Results flagged for a closer look

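The effect of the *Meteor* deletion differed between day 0 and day 3, by edgeR's interaction term, for 4 of the 7 tested genes. Over all tested genes, 7.34% passed in the negative and 8.21% in the positive direction. *Mesp1* passed the filter only through WT day 3, the group in which it was high. The KO effect at day 3 minus that at day 0 was -7.18 for *Mesp1*, -3.88 for *Mesp2* and -1.23 for *Dll3*, and 2.22 for *Dll1*. Only the *Mesp2* difference passed in every one of the 12 fits that left out 1 sample.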

How the results depend on the processing

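The 5 lower genes at day 3 (*Mesp1*, *Mesp2*, *Msgn1*, *Tbx6* and *Dll3*) passed under every alternative that tested them. With at least 10 counts in every sample, only *Dll1* and *Dll3* could be tested, and 1 gene passed at day 3, 1 in WT between the days, 2 in KO between the days and 2 for the interaction.

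The replicate block within each day raised the number of genes passing at day 0 to 2 of the 7, and over all genes to 5447 at day 0, 7347 at day 3 and 4889 for the interaction. It was not run for the comparisons between days. Without a replicate block the counts of all genes were 2640, 4134 and 2002, the day 0 and day 3 counts of the 7 were 1 and 5, and *Tbx6* passed for the interaction (-2.17, adjusted p = 0.0402). No other call of the 7 genes beyond those given with *Dll1* and *Tbx6* changed with the block.

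At day 0, 2 of the genes passed with only the 6 samples (5356 over all genes), with DESeq2 and without both day 3 samples numbered 3, and 3 of 9 without a filter. Without both day 3 samples numbered 3, 2 genes passed for the interaction (1572 over all genes), and 2875 of all genes passed at day 3. With a log2 fold change above 1 as well, all genes numbered 2065 at day 3, 1398 at day 0, 4304 in WT, 4535 in KO and 1494 for the interaction.

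With each sample left out in turn, the genes passing numbered 5 to 6 at day 3, 1 to 2 at day 0, 5 to 6 in WT, 2 to 5 in KO and 2 to 4 for the interaction. Over all genes they numbered 2907 to 5079 at day 3, 1717 to 3480 at day 0, 7257 to 8684 in WT, 7499 to 9056 in KO and 1391 to 2397 for the interaction. Low values turned direction. With 1 sample left out, the day 0 difference ran from -3.19 to 4.40 for *Mesp1* (4.40 without replicate 3 of WT day 0) and from -0.63 to 0.028 for *Mesp2* (0.028 without replicate 3 of *Meteor* KO day 0). The KO change between the days ran from -1.60 to 1.46 for *Mesp1* and from -4.19 to 0.22 for *Msgn1*, both highest without replicate 2 of *Meteor* KO day 0, and was 0.28 for *Mesp1* with limma-voom and without both day 3 samples numbered 3. None of these was called. Over single genes and alternatives, 622 values kept direction and side of the threshold, 26 came to pass, 30 no longer passed and 6 turned. Depth limits *Ripply2*, *Hes7* and the day 0 and KO values of *Mesp1* and *Msgn1*.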
